A study of Homo sapiens with 6 samples.

Results

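TXNIP, the 4 expressed ARRDC genes and MLXIP were examined by RNA-seq in dye-sorted breast cancer cells. These 6 genes are TXNIP, ARRDC1, ARRDC2, ARRDC3, ARRDC4 and MLXIP, taken by gene name from 58735 rows in the deposited tables, and all 6 had counts in every library. The line was MDA-MB-231, from a human triple-negative breast cancer, of wild-type genotype per the labels and grown in high-glucose medium with serum. They were stained with PKH26, a fluorescent membrane dye that is diluted at each division, and grown for 12 days. The brightest 1% were sorted as slow-cycling cells (SCC, 3 libraries). Moderately bright cells were taken as the rapid-cycling fraction (RCC, 3 libraries), a fraction that the sample characteristics call low in dye. Both fractions were stained and sorted cells of the same line. The dye level and the sort gate differed between the groups, and their part cannot be told apart from that of the group. The labels call the 3 samples of each group biological replicates and do not say whether these were separate stainings or cultures, so p-values measure only the spread between these samples, which may be technical.

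Alpha-arrestins are adaptor proteins that carry ubiquitin ligases of the NEDD4 family to membrane proteins, which are then internalised and sorted. TXNIP, the best-known of them, also binds thioredoxin and inhibits it, and it lowers glucose uptake by promoting removal of the glucose transporter GLUT1 from the cell surface. MLXIP encodes MondoA, a transcription factor that acts with its partner MLX when glucose phosphates accumulate, and TXNIP and ARRDC4 are its standard target genes. ARRDC3 has been described as a growth-restraining gene in breast cancer, and its protein promotes the removal of the integrin ITGB4 from the cell surface.

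The members were selected on the SCC against RCC difference in these same libraries, which was known when they were put together. Their differences are therefore given as levels and fitted changes, as a description without p-values for single members. The sequences before the transcription starts of TXNIP, ARRDC3 and ARRDC4 are shown first. TXNIP and ARRDC3 were the members with the clearest difference between the groups, and ARRDC4 is the other standard MondoA target. They are RefSeq sequences (GRCh38.p14), which hold windows for all 6 members, 9 in all, each covering the 250 bases before a start. Bases that GENCODE release 29 annotates as untranslated exon were left out of what is printed. Capitals mark matches to 5 motifs searched on both strands, namely the E-box CACGTG, a pair of E-box-like CACGNG sites 5 bases apart, as in carbohydrate response elements, the FOXO-type GTAAACA, the AP-1-type TGANTCA and the CCAAT box. All sequences run 5′ to 3′ on the gene's strand.
TXNIP, minus strand, chr1:145996601-145996829: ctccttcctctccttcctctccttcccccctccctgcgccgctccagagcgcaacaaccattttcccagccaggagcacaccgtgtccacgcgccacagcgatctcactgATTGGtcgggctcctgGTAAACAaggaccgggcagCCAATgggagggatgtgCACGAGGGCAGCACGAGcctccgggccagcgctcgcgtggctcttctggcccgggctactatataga
ARRDC3, upstream start, minus strand, chr5:91383360-91383567: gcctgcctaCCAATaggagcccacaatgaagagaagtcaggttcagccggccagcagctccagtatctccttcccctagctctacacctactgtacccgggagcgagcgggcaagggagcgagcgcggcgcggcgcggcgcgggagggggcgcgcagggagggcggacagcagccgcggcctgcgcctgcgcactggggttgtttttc
ARRDC3, inner start, minus strand, chr5:91380098-91380347: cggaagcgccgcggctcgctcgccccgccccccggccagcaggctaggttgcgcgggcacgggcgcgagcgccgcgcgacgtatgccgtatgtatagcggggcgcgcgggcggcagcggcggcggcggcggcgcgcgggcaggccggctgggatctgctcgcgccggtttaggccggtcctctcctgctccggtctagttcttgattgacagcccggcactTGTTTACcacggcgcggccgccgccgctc
ARRDC4, plus strand, chr15:97960453-97960697: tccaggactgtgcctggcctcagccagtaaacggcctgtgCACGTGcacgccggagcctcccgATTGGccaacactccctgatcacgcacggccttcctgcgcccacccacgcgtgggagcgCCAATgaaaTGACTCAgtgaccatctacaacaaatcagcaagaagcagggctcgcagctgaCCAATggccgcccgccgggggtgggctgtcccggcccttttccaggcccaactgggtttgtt

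The TXNIP window held the paired E-box-like sites, beginning 88 bases before the RefSeq start, as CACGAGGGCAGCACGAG. This pattern was in 16 of 34943 windows of that length over all genes (0.0458%), and in none of the other 8 member windows. The same TXNIP window held a FOXO-type match 124 bases before the start and CCAAT boxes at 140 and 105 bases. A FOXO-type match was in 2.98% of all windows, and among the members it occurred also in the inner ARRDC3 window, 29 bases before that start. The ARRDC4 window held an E-box at 210 bases, an AP-1-type match at 119 bases and 3 CCAAT boxes. An E-box was in 6.32% of all windows, an AP-1-type match in 6.59% and a CCAAT box in 32.0%. The first ARRDC2 window had an AP-1-type match at 121 bases, and the inner TXNIP window had no match to any of the 5 motifs. CACGTG is itself a form of CACGNG, but no printed matches overlapped, and a match says only that the letters are present.

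Summed counts ranged from 17655855 to 27831824 per library. Levels are given as CPM, counts scaled to the TMM-adjusted library total, or as FPKM, which also divides by gene length and was used where genes are compared with each other. SCC replicate 1 stood apart from the other libraries. Chi-square statistics of its counts against the other SCC replicates, divided by their degrees of freedom, were 28.0 and 21.0, compared with 3.31 to 4.30 for the other pairs within groups. Its median log2 deviation from the mean of the 6 libraries was -0.24 in the tenth of genes with the lowest GC content and 0.40 in the tenth with the highest, where the other 5 libraries lay between -0.16 and 0.10. The differences of the members, KLF10 and ITGB4 are therefore also given without that library, and with an offset for GC content. The share of counts from mitochondrial genes, a sign of RNA quality, was 4.75%, 4.47% and 4.45% in SCC replicates 1 to 3 and 3.95%, 3.95% and 3.77% in RCC replicates 1 to 3. It separated the groups, as the levels of TXNIP and ARRDC3 did, and its part in the results was not tested. Of the markers of the line, VIM, CD44, AXL, CAV1 and KRT18 were present (summed CPM from 2780 to 2924), and ESR1, PGR, CDH1 and EPCAM summed to at most 6.32 CPM. Of 9 leukocyte, endothelial, stromal and red-cell markers, 0 were called by edgeR or by DESeq2, while an unadjusted p under 0.05 was reached by 2 higher and 0 lower markers. Their summed level was 17.1 to 24.0 CPM in SCC and 13.7 to 15.3 in RCC. COL1A1, a fibroblast collagen gene, made up most of it and was higher in every SCC library (mean 13.4 CPM against 9.49 CPM, log2 fold change 0.50). PTPRC, the leukocyte gene of CD45, averaged 0.98 CPM in SCC, of which SCC replicate 1 held 1.97, and 0.29 CPM in RCC (log2 fold change 1.84), and CD3E had 1 count in a single library. The part of these markers in the results was not tested. In RNA from sorted populations, fewer cells expressing a gene and less of its RNA per cell cannot be told apart.

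TXNIP was higher in slow-cycling cells, at 115 ± 8.64 CPM in SCC against 63.7 ± 1.84 CPM in RCC (SD, n = 3). Its gene lies on the minus strand of chromosome 1 from 145992435 to 145996600 (ENSG00000265972, GRCh38 positions as in GENCODE 29), and no other row of the table overlaps it. In SCC replicates 1 to 3 it was at 107, 124 and 113 CPM, and in RCC replicates 1 to 3 at 65.6, 63.6 and 61.9. Every SCC library was above every RCC library, and the lowest SCC value was 1.63 times the highest RCC value. The fitted log2 fold change was 0.85 (standard error 0.076), a fold of 1.80. It was higher than that of 97.6% of the 15881 tested genes. Without SCC replicate 1 the log2 fold change was 0.89, and with the GC offset 0.90. SCC replicate 1 was the SCC library with the lowest TXNIP level.

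ARRDC3 was the other member with a clearly separated level, at 28.6 ± 3.45 CPM in SCC against 18.0 ± 1.46 CPM in RCC (SD, n = 3). The gene lies on the minus strand of chromosome 5 from 91368724 to 91383359 (ENSG00000113369). Its values were 25.3, 32.2 and 28.2 CPM in SCC replicates 1 to 3 and 16.3, 18.6 and 19.1 in RCC replicates 1 to 3. The groups did not overlap, and the lowest SCC value was 1.33 times the highest RCC value. ARRDC3 had a log2 fold change of 0.67 (standard error 0.11), a fold of 1.59, with 0.75 without SCC replicate 1 and 0.80 after GC offset. As for TXNIP, SCC replicate 1 was the lowest of the SCC libraries. ARRDC3 overlaps the noncoding ARRDC3-AS1 on the opposite strand over 3011 bases, and the use of strand in counting was not given in the sources used here. ARRDC3-AS1 had 29 counts over the 6 libraries against 3014 for ARRDC3, 2 to 9 in each library, and was too low to be tested.

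**Figure D1:**
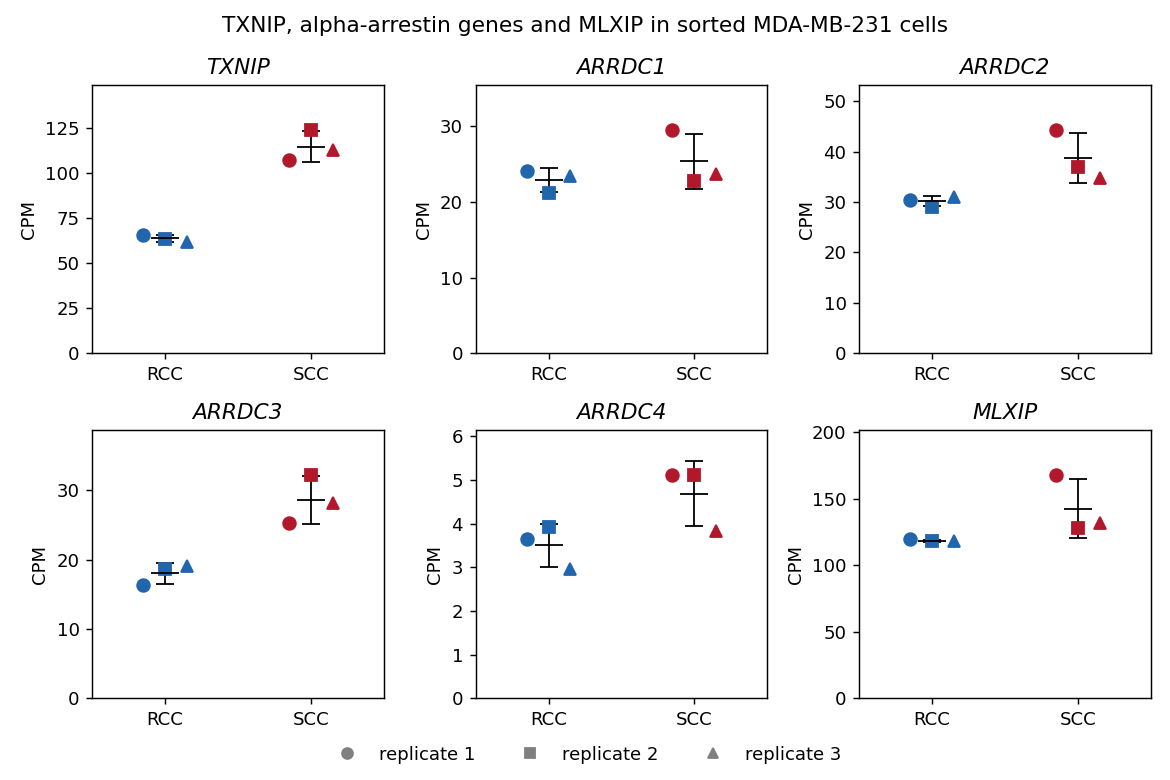
CPM of the 6 genes (vertical axes, each starting at 0) in the RCC and SCC libraries; symbols mark the replicate number, and bars are the mean ± SD of 3 libraries. TXNIP and ARRDC3 separate the groups widely, ARRDC2 and MLXIP narrowly with SCC replicate 1 highest, and ARRDC1 and ARRDC4 overlap.

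ARRDC2, a less studied alpha-arrestin, was at 38.7 ± 5.00 CPM in SCC against 30.1 ± 0.97 CPM in RCC (SD, n = 3). The values were 44.4, 37.0 and 34.8 CPM in SCC replicates 1 to 3, and 30.4, 29.1 and 30.9 in RCC replicates 1 to 3. The groups did not overlap, but the lowest SCC value was only 1.13 times the highest RCC value and SCC replicate 1 stood well above the rest. Its fitted log2 fold change was 0.36 (standard error 0.10), 0.25 without SCC replicate 1 and 0.19 after GC offset. ARRDC2 (ENSG00000105643, plus strand of chromosome 19, 18001132 to 18014102) overlaps a single row on the opposite strand, which had 0 counts.

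ARRDC1 takes part in the release of membrane vesicles through TSG101. Its CPM was 29.5, 22.8 and 23.7 in SCC replicates 1 to 3 and 24.1, 21.2 and 23.4 in RCC replicates 1 to 3, so the groups overlapped. The log2 fold change of 0.15 (standard error 0.11) became 0.02 without SCC replicate 1 and -0.08 after GC offset, so its direction was not settled. ARRDC1 (ENSG00000197070, plus strand of chromosome 9, 137605654 to 137615360) shares 29 bases with ARRDC1-AS1, which had 1577 counts over the 6 libraries against 3157 for ARRDC1. It also shares 9617 bases with AL590627.2 on the same strand, which had 0 counts. ARRDC1-AS1 was at 11.4 ± 1.15 CPM in SCC against 13.0 ± 1.31 CPM in RCC (SD, n = 3).

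ARRDC4, the closest companion of TXNIP as a MondoA target, was the least abundant member. It was at 5.12, 5.11 and 3.84 CPM in SCC replicates 1 to 3 and at 3.65, 3.92 and 2.96 in RCC replicates 1 to 3. The groups overlapped, because SCC replicate 3 lay below RCC replicate 2. These values rest on 53 to 138 counts per library, and the exact 95% Poisson interval of the smallest, 39.7 to 69.3, covers counting error only. ARRDC4 had a log2 fold change of 0.41 (standard error 0.19). That difference was not called. It was 0.34 without SCC replicate 1 and 0.48 after GC offset. ARRDC4 (ENSG00000140450, plus strand of chromosome 15, 97960698 to 97973838) overlaps no other row.

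MLXIP, the gene of MondoA itself, was at 168, 128 and 132 CPM in SCC replicates 1 to 3 and at 119, 118 and 118 in RCC replicates 1 to 3. The RCC libraries were nearly identical, and the SCC libraries lay above them by little except in replicate 1. The log2 fold change of 0.27 (standard error 0.098) was 0.13 both without SCC replicate 1 and after GC offset. MLXIP (ENSG00000175727, plus strand of chromosome 12, 122078722 to 122147347) overlaps no other row.

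**Figure D2:**
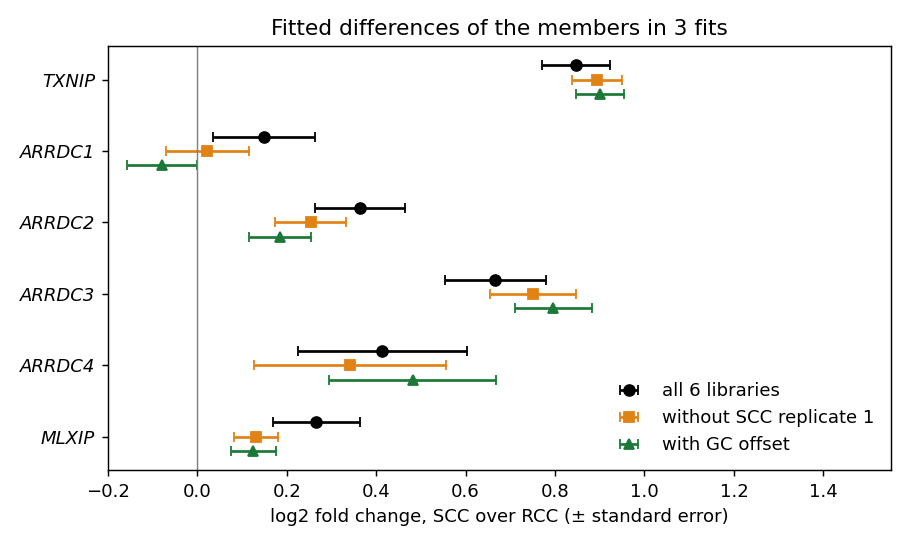
Fitted log2 fold change of SCC over RCC with its standard error (horizontal axis) for each member, with all 6 libraries, without SCC replicate 1, and with an offset for GC content. TXNIP (0.85, 0.89 and 0.90) and ARRDC3 (0.67, 0.75 and 0.80) were larger in the other fits, whereas ARRDC2 and MLXIP were smaller and ARRDC1 reached -0.08.

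The members thus fell apart by how they behaved in SCC replicate 1. Transcript GC content was 37.6% for ARRDC3, 43.4% for ARRDC4 and 43.9% for TXNIP, and 57.9% for MLXIP, 60.2% for ARRDC2 and 62.8% for ARRDC1. In the 3 GC-rich genes SCC replicate 1 was the highest of the 6 libraries, with log2 ratios to the RCC mean of 0.50 for MLXIP, 0.56 for ARRDC2 and 0.37 for ARRDC1. The same ratios in SCC replicates 2 and 3 were 0.11 and 0.15 for MLXIP, 0.30 and 0.21 for ARRDC2, and -0.01 and 0.05 for ARRDC1. In TXNIP and ARRDC3 the order was the opposite, with 0.75 and 0.49 in SCC replicate 1 against 0.96 and 0.84 in SCC replicate 2. ARRDC4 followed neither order, with 0.54 in SCC replicates 1 and 2 and 0.13 in SCC replicate 3.

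**Figure D3:**
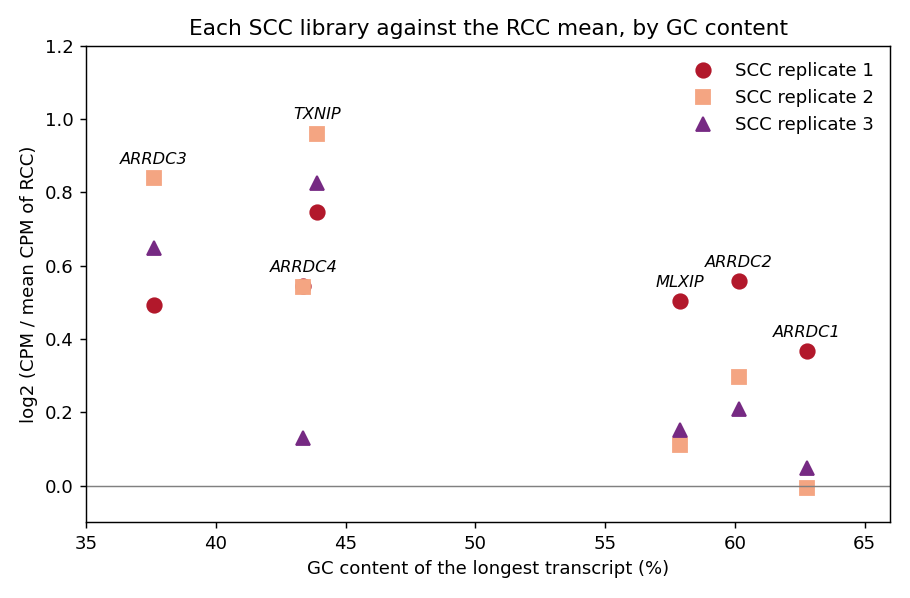
Log2 ratio of each SCC library's CPM to the mean CPM of RCC (vertical axis) against the GC content in percent of the gene's longest GENCODE transcript (horizontal axis). SCC replicate 1 is the lowest SCC library for TXNIP and ARRDC3 and the highest for MLXIP, ARRDC2 and ARRDC1, while for ARRDC4 the points of SCC replicates 1 and 2 coincide at 0.54.

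By edgeR's quasi-likelihood test over all genes, with Benjamini-Hochberg adjustment at 0.05, 2.07% of 15881 genes were called, 1.69% higher and 0.378% lower in SCC. TXNIP and ARRDC3 were among the higher genes, 0 members were called lower, and 4 were not called. An unadjusted p under 0.05 was reached by 4 members, all higher in SCC, but the share of all genes at that level is not given here. DESeq2 also called 2 members higher and 0 lower, beside 393 genes higher and 120 lower over all genes. Since the contrast was known when the members were chosen, nothing is read from these counts. Without SCC replicate 1, 2 members and 6.03% of tested genes were called in either direction, and with the GC offset 2 members and 4.84% of tested genes. The CPM of the groups did not overlap for 4 of the 6 members and for 27.8% of all tested genes. TXNIP was past the threshold in 17 of 17 alternative analyses and ARRDC3 in 11 of 17. ARRDC3 was not called without RCC replicate 1, 2 or 3 (log2 fold changes 0.59, 0.69 and 0.70), nor in the 3 analyses of FPKM values (0.54, 0.64 and 0.54). The median log2 fold change of the 6 members was 0.39, against 0.0029 over all tested genes. That contrast too follows from how the members were chosen, and nothing is read from it.

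Per unit of gene length, TXNIP was the most abundant of the members in every library, with 31.4 ± 2.51 FPKM in SCC against 17.5 ± 0.48 FPKM in RCC (SD, n = 3). Its RCC level exceeded that of 82.2% of tested genes and its SCC level that of 90.5%. MLXIP was next at 10.2 ± 1.51 FPKM in SCC against 8.49 ± 0.039 FPKM in RCC, followed by ARRDC2 at 8.29 ± 1.01 and 6.48 ± 0.18. ARRDC1 was at 6.58 ± 0.90 FPKM in SCC against 5.97 ± 0.36 FPKM in RCC, ARRDC3 at 5.75 ± 0.72 and 3.64 ± 0.31, and ARRDC4 at 1.14 ± 0.18 and 0.86 ± 0.12 (SD, n = 3). This order held in 5 of the 6 libraries. In SCC replicate 2, ARRDC3 at 6.50 FPKM exceeded ARRDC1 at 5.94, so that those neighbours overlapped in SCC whereas in RCC they did not. In SCC, MLXIP and ARRDC2 overlapped, as did ARRDC2 and ARRDC1, while in RCC these neighbours were separate. Both overlaps came from SCC replicate 1 set against another library. ARRDC2 was at 9.42 FPKM there, above MLXIP at 9.15 in SCC replicate 2. ARRDC1 was at 7.61 there, above ARRDC2 at 7.49 in SCC replicate 3. Within each library, MLXIP was above ARRDC2 and ARRDC2 above ARRDC1. The 5 alpha-arrestin genes together summed to 53.1 ± 2.25 FPKM in SCC against 34.5 ± 0.36 FPKM in RCC (SD, n = 3). TXNIP made up 55.5%, 61.1% and 60.5% of that sum in SCC replicates 1 to 3 and 51.4%, 51.5% and 49.5% in RCC replicates 1 to 3. ARRDC5, another gene of the family, had 0 counts in every library.

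Genes around MondoA were described from lists written with earlier results of these data known, and they are set beside the 1.69% of all genes called higher and 0.378% called lower. For an unadjusted p under 0.05 no share over all genes is given, so list counts at that level have no reference here. MLX, the obligate partner of MondoA, was at 92.5, 90.5 and 97.8 CPM in SCC replicates 1 to 3 and 100, 110 and 102 in RCC replicates 1 to 3. Its groups did not overlap, with SCC below RCC, and the log2 fold change of -0.15 (standard error 0.070) was not called. With the GC offset and replicate block together MLX was called lower (-0.19). The paralog MLXIPL, which encodes the glucose-responsive factor ChREBP, was at or below 1.14 CPM on average in both groups. Of 10 genes reported as targets of MondoA or ChREBP, 8 were tested, 1 was called higher and 0 lower, with an unadjusted p under 0.05 for 2 higher and 0 lower. The median log2 fold change of the tested targets was 0.12. DESeq2 also called 1 of them higher and 0 lower.

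The called target was KLF10, a zinc finger transcriptional repressor that TGF-beta induces. It was at 116, 132 and 127 CPM in SCC replicates 1 to 3 and 81.2, 79.5 and 83.7 in RCC replicates 1 to 3, so that the groups did not overlap. The log2 fold change was 0.62 (standard error 0.072, adjusted p 0.0010 by edgeR's quasi-likelihood test), with 0.67 when SCC replicate 1 was left out and 0.64 after GC offset. KLF10 was called in all 17 alternative analyses. Because its list was written with earlier results of these data known, its p-value and calls are descriptions only. The glycolytic target HK2, hexokinase 2, had a log2 fold change of 0.01 (standard error 0.064), and FASN, fatty acid synthase, one of 0.18 (standard error 0.14). PFKFB3, another glycolytic target, had 0.19 (standard error 0.071), and its groups did not overlap, with SCC above RCC. RGS16 had 0.62 (standard error 0.39) at a low level, 1.51 CPM on average in SCC and 0.96 in RCC. The remaining tested targets ACACA, ACLY and SCD had -0.05, 0.06 and -0.05. None of these was called.

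The thioredoxin system, whose central protein TXNIP binds, had 0 of 12 genes called higher and 0 lower by edgeR. At an unadjusted p under 0.05, 2 were higher and 1 lower, and DESeq2 called 1 higher, PRDX2, and 0 lower. PRDX2 was also called higher by edgeR with all genes that had any count, with the replicate block, with the GC offset, with both, and when SCC replicate 1 or 2 was left out. TXN was called lower by edgeR with all genes that had any count (log2 fold change -0.26) and with the GC offset and replicate block together (-0.21). The median log2 fold change was -0.02. TXN, thioredoxin itself, was at 254, 357 and 327 CPM in SCC replicates 1 to 3 and 356, 401 and 367 in RCC replicates 1 to 3. The groups overlapped, SCC replicate 1 was lowest, and the log2 fold change of -0.26 (standard error 0.11) was not called. TXNRD1, the cytosolic thioredoxin reductase, was at 411 ± 19.1 CPM in SCC against 420 ± 16.1 CPM in RCC (SD, n = 3). PRDX2, a peroxiredoxin that thioredoxin reduces, was at 121 ± 10.6 CPM in SCC against 96.4 ± 6.39 CPM in RCC (SD, n = 3), with a log2 fold change of 0.33 (standard error 0.083). It was 0.25 when SCC replicate 1 was left out and 0.21 after GC offset.

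Among the 9 NEDD4-family ubiquitin ligases that alpha-arrestins recruit, 0 were called higher or lower by edgeR or by DESeq2. At an unadjusted p under 0.05, 0 were higher and 1 lower, and the median log2 fold change was 0.08. NEDD4 was at 119 ± 9.85 CPM in SCC against 134 ± 6.21 CPM in RCC (SD, n = 3), a log2 fold change of -0.17. The log2 fold changes of NEDD4L, ITCH, the ligase that ubiquitinates TXNIP, and WWP1 were -0.09, -0.13 and -0.05, with standard errors of 0.070, 0.080 and 0.081. The other 5 ligases had positive values, 0.08 for WWP2, 0.10 for SMURF1, 0.10 for SMURF2, 0.15 for HECW1 and 0.23 for HECW2. Of the 9 ligases, 3 did not overlap between the groups, beside 27.8% of all tested genes. Of these, SMURF2 was higher in SCC, and NEDD4 and ITCH were lower. SMURF2 was called higher with the GC offset (0.21). The summed level of the 9 ligases was 789 to 805 CPM in SCC and 797 to 807 in RCC, so that the groups overlapped.

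Of 15 genes for alpha-arrestin cargo and sorting partners, 1 was called higher and 0 lower, with an unadjusted p under 0.05 for 3 higher and 0 lower. The median log2 fold change was 0.12. The called gene was ITGB4, the integrin subunit whose protein ARRDC3 directs to degradation. It was at 193, 135 and 135 CPM in SCC replicates 1 to 3 and 79.2, 76.6 and 79.2 in RCC replicates 1 to 3. The groups did not overlap, and SCC replicate 1 was highest. Its log2 fold change was 0.98 (standard error 0.13, adjusted p 0.0017 by edgeR's quasi-likelihood test), 0.79 without SCC replicate 1 and 0.73 after GC offset. This p-value too is a description, as the list was written with earlier results of these data known. ITGB4 (GC content 63.7%) overlaps GALK1 on the opposite strand, so its value is uncertain where strand was not used in counting. It was not called with FPKM values and no filter (log2 fold change 0.90).

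The glucose transporters were not called, except in alternative analyses. SLC2A1, which encodes GLUT1, was at 344, 263 and 267 CPM in SCC replicates 1 to 3 and 242, 233 and 238 in RCC replicates 1 to 3. The groups did not overlap, and the log2 fold change was 0.29 (standard error 0.097). SLC2A3, which encodes GLUT3, was at 47.0 ± 1.59 CPM in SCC against 38.1 ± 0.75 CPM in RCC (SD, n = 3), a log2 fold change of 0.30 (standard error 0.075). Without SCC replicate 1 both were called higher, with log2 fold changes of 0.16 and 0.33. SLC2A3 was also called higher with the GC offset, alone (0.34) and with the replicate block (0.34). SLC2A1 was also called higher with all genes that had any count (0.30) and with the GC offset and replicate block together (0.20). TSG101, the sorting partner of ARRDC1, had a log2 fold change of 0.00 (standard error 0.079).

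**Figure D4:**
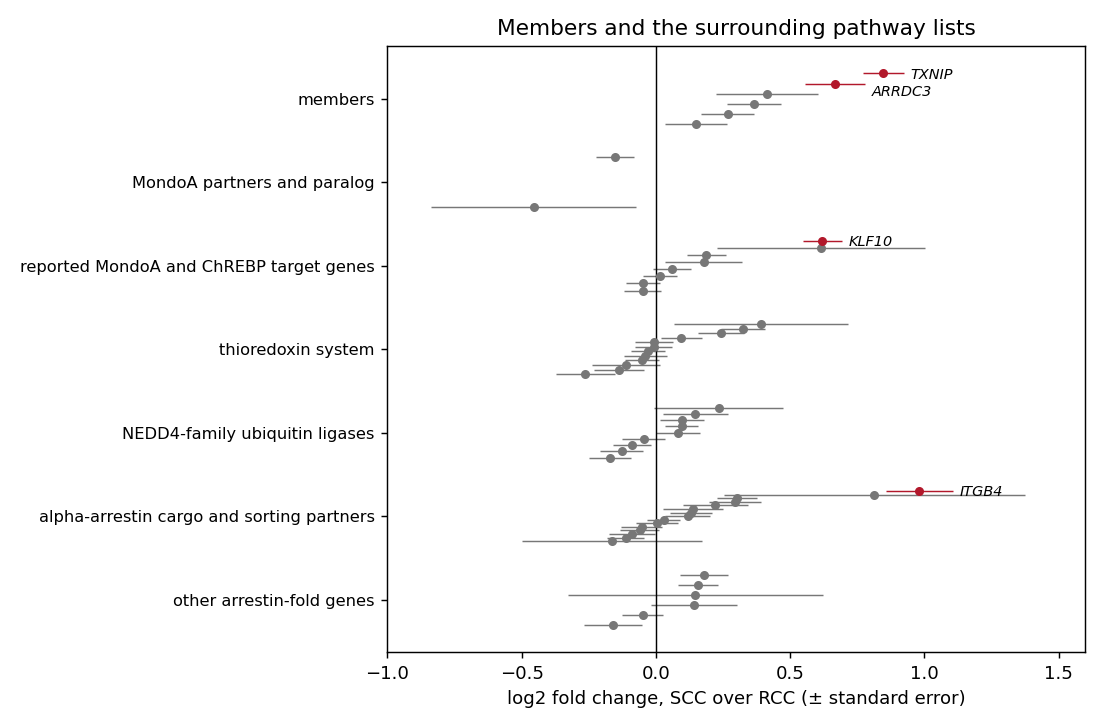
Fitted log2 fold change of SCC over RCC with its standard error (horizontal axis) for the members and the tested genes of 6 pathway lists; red marks genes called higher by edgeR's quasi-likelihood test. Besides TXNIP and ARRDC3, only KLF10 (0.62) and ITGB4 (0.98) are called, and the thioredoxin and ligase lists lie around 0.

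The other arrestin-fold genes gave 0 of 6 tested genes called higher or lower by edgeR or by DESeq2, and 0 in either direction at an unadjusted p under 0.05. The beta-arrestin genes ARRB1 and ARRB2, which desensitise G protein-coupled receptors, had log2 fold changes of 0.18 and 0.14 (standard errors 0.088 and 0.16). The cells were sorted on dye, and cell-cycle genes, which played no part in the sort, were looked at beside it. The proliferation gene MKI67 had a log2 fold change of 0.12 (standard error 0.076), and CCNB1, the mitotic cyclin gene, one of -0.11 (standard error 0.069). Neither of them was called. CDKN1A, which encodes the kinase inhibitor p21, was called higher, with a log2 fold change of 0.69 (standard error 0.077, adjusted p 7.5e-04 by edgeR's quasi-likelihood test). These genes were also listed with earlier results of these data known, so the p-value is a description.

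The genes whose levels followed TXNIP most closely were ranked among 11061 tested genes whose higher group averaged 5 CPM or more, by Pearson's r of log2 CPM over the 6 libraries. They were TIPARP, a gene of the poly-ADP-ribose polymerase family induced by the aryl hydrocarbon receptor (0.997), CCNL1, a cyclin linked to splicing (0.995), and RNU5A-1, a U5 small nuclear RNA gene with near-identical copies (0.994). For ARRDC3 they were PMAIP1, which encodes the pro-death protein NOXA (0.991), TSPAN13, a tetraspanin gene (0.988), and BCL6, a transcriptional repressor gene (0.988). These values are descriptions over libraries that share the group difference. Mean CPM rose from 42.1 in RCC to 66.1 in SCC for TIPARP (log2 fold change 0.65) and from 84.5 to 171 for CCNL1 (1.02). RNU5A-1 was low in RCC, with a mean of 0.91 CPM against 5.19 in SCC (2.49), and it overlaps PARP16 on the opposite strand. For PMAIP1 the mean was 50.2 CPM in RCC and 70.6 in SCC (0.49). TSPAN13 and BCL6 had log2 fold changes of 0.27 and 0.36 and were not called.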

How the data were processed

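Per the deposited tables, the values were raw counts per gene and FPKM per gene, which the authors made for 6 libraries. The submitters' processing notes name HISAT2 2.0.5 and featureCounts 1.5.0-p3; the genome build, strand setting and read filters were not given in the sources used here. All 58735 gene IDs were in GENCODE 29 (GRCh38), 58690 at the same position. Each FPKM equalled the count divided by gene length and 1 constant per library.

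Counts were filtered with filterByExpr (minimum count 10), scaled by TMM and tested on group alone with edgeR 4.0.16 in R 4.3.3 (quasi-likelihood F test, two-sided, Benjamini-Hochberg adjusted p under 0.05 called). Each standard error was the absolute log2 fold change over the root of its F statistic. Alternatives used DESeq2 1.42.0, limma 3.58.1 on log2(FPKM + 1) and log2(FPKM + 0.1), other scalings and filters, the replicate number as a block, single libraries left out, and a GC offset (lowess, span 0.3, from the longest GENCODE transcript). The GC offset used transcripts because no genome was used here. The fit was also run on simulated data, and the outcome is not reported here. A gene that was not called may still differ between the groups.

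The members and lists were chosen with earlier results of these data known. Named were the members, fixed genes of the lists, other called list genes, and the 3 genes most like each called member. HK2, FASN, PFKFB3, RGS16, ACACA, ACLY, SCD, PRDX2, SLC2A3 and MLXIPL were added after their values were seen. So were CCNB1, COL1A1, PTPRC, CD3E, WWP2, SMURF1, SMURF2, HECW1 and HECW2. A few list genes are not reported here by name.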

Additional observations from a re-analysis of the deposited data

How the results depend on the processing

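TXNIP kept its direction and call in all 17 alternatives (log2 fold change 0.77 to 0.90), and the other members kept their direction in all of theirs, except ARRDC1 with the GC offset, alone (-0.079) and with the replicate block (-0.079). ARRDC4 gave no value in the 2 FPKM analyses with a filter. Against 268 genes called higher and 60 lower, 2 members and 2 pathway list genes higher and 0 list genes lower, keeping all genes that had any count (minimum 1) gave 995 and 315, 4 members, and 4 list genes higher and 1 lower; ARRDC2 (0.37) and MLXIP (0.27) were then called. DESeq2 called 120 genes lower. Limma on log2(FPKM + 1) gave 130 and 36 genes and 1 member, with ARRDC3 at 0.54 not called, and on log2(FPKM + 0.1) 117 and 34 and 1 member, with ARRDC3 at 0.64 not called. Without a filter it gave 48 higher genes and 1 lower, 1 member and 1 list gene, with ARRDC3 at 0.54 and ITGB4 at 0.90 not called. The GC offset gave 523 and 245 genes and 5 list genes higher. For these changes the cause was not tested.

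Same-numbered replicates did not deviate together (correlations of deviations from group means -0.0091, 0.025 and -0.079), and not every library correlated best with its own number. With the replicate block, 350 genes were higher and 106 lower, and no member changed its call. With the GC offset and the replicate block there were 621 and 432 genes, and 6 list genes higher and 2 lower.

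Leaving out 1 library at a time gave 99 to 642 genes higher and 8 to 343 lower, 1 to 2 members higher and 2 to 5 list genes higher. The log2 fold change of ARRDC3 was 0.56 to 0.75 in these fits, and its call was lost when RCC replicate 1, 2 or 3 was left out. Fewer libraries enter these fits. ARRDC4 rests on 53 to 138 counts per library.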
